A study of Bos indicus with 11 samples.

Results

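Motile cilia are the beating, hair-like projections of ciliated epithelial cells, which in the endometrium lie scattered among the secretory cells of the luminal epithelium and the mouths of the glands. Each is built on a ring of paired microtubules, the doublets, around a central pair. Rows of dynein motor proteins on the doublets, the outer and inner arms, slide neighbouring doublets past each other, and radial spokes that reach to the central pair regulate the beat. The transcription factor FOXJ1 switches on most of the genes that code for these parts, and large dynein chains must be assembled in the cytoplasm by dedicated factors before they enter the cilium.

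The motile cilia genes described here are those whose symbol matches a fixed list, and no measured value entered this rule. They are the axonemal dynein heavy chains (DNAH) and intermediate chains (DNAI), the tektins (TEKT), the radial spoke head proteins (RSPH), SPAG6, SPAG8, SPAG16 and SPAG17, together with FOXJ1, CCDC39, CCDC40, LRRC6 and ZMYND10. HYDIN and ARMC4 were also looked for, and no row bears either symbol. Of the 24616 genes listed, 26 matched, and 23 of these reached a mean of 5 normalized counts across the 11 columns and are among the 15081 genes tested. The other 3 were SPAG16, RSPH6A and TEKT5. TEKT5 had no read in any cow, RSPH6A had a mean of 0.595 normalized counts, and SPAG16, just under the limit, had a mean of 3.18 with 0 to 11 reads per cow. The member just above the limit was TEKT4, at a mean of 21.7.

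The endometrium of multiparous, non-lactating Nellore cows (Bos indicus) was biopsied on day 6 after AI, in the uterine horn opposite the ovary that bore the corpus luteum. All cows had been synchronized with a prostaglandin F2α analogue and inseminated, and were chosen for similar plasma progesterone. Cows diagnosed as pregnant on day 30 formed the P group (n = 6), and cows diagnosed as non-pregnant formed the NP group (n = 5). Each cow gave 1 biopsy and 1 polyA-selected library and is called by its group and number.

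The libraries held 9290949 to 13508711 gene-assigned reads in P cows and 9783673 to 13569085 in NP cows. A normalized count is a read count divided by the size factor of its cow, so that 1 read was worth 0.784 to 1.14 normalized counts. Values are not divided by gene length, and levels are therefore compared between cows and not between genes. Cow P617 stood apart from the other libraries. Its 26 epithelial markers summed to 8396 normalized counts, and 22 of the 26 had their lowest value there. The sum was 21571 (P1541) to 54726 (P1631) in the other P cows and 25841 to 34879 in the NP cows. The 16 smooth muscle markers summed to 454895 in P1541 and to 611296, the highest of all cows, in P617. The supplementary materials of the study name the same cow number as non-pregnant, whereas the sample label places it in P, so the main results are also given without it. In whole biopsies, fewer ciliated cells and less cilia RNA per cell cannot be told apart.

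Motile cilia RNA was present in all 11 endometria, and its amount differed widely from cow to cow. FOXJ1 (ENSBTAG00000007916) had 52.0 normalized counts in cow P617, 165.5 in P1541, 305.0 in P1753, 769.3 in P904, 788.0 in P1631 and 2041 in P2396. In NP cows it had 332.8 in NP638, 436.3 in NP2810, 545.2 in NP238, 673.2 in NP856 and 1334 in NP2541. The lowest and the highest cow were thus both in the P group, 39.3-fold apart, and all 5 NP cows lay between them. The other structural and assembly genes mostly followed the same order of cows.

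Among outer arm heavy chains, the motors that provide most of the power of the beat, DNAH5 spanned the widest range of all members with a read in every cow. It had 14.7 normalized counts in cow P617 (13 reads), a P median of 385.8 and 1898 in cow P2396, which is 129-fold higher. NP cows had 188.6 in NP2810, 279.0 in NP638, 448.1 in NP238, 468.9 in NP856 and 944.9 in NP2541. DNAH11, the other outer arm heavy chain, ran from 16.9 in P617 to 1146 in P2396. The intermediate chains that anchor the outer arm, DNAI1 and DNAI2, ran from 12.4 to 343.1 and from 10.2 to 489.2 in the same 2 cows. In each of these 4 genes the NP cows lay inside the range of the P cows.

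Inner arm heavy chains, which shape the waveform of the beat, were DNAH2, DNAH3 and DNAH7. DNAH7 had 19.2 normalized counts in cow P617, a P median of 185.4 and 781.5 in P2396, and in NP cows 102.5 in NP638, 105.0 in NP2810, 247.8 in NP238, 302.2 in NP856 and 367.0 in NP2541. DNAH2 varied more, from 7.91 in P617 to 456.8 in P2396. DNAH3 varied less, from 53.2 in P1541 to 392.1 in P2396, and its values in P617 (55.4) and P1753 (60.4) were close to that lowest value.

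Of the assembly factors, ZMYND10 kept the order of FOXJ1 without exception. It had 28.2 normalized counts in P617, 88.1 in P1541, 116.8 in P1753, 506.8 in P904, 551.6 in P1631 and 1027 in P2396. NP cows had 236.4 in NP638, 261.0 in NP2810, 291.3 in NP238, 343.1 in NP856 and 750.4 in NP2541. The lowest 3 cows were P cows, followed by 4 NP cows. LRRC6, the other assembly factor among the members, had 31.6 in P617, 34.8 in P1541, 141.9 in P1753, 190.7 in P1631, 252.0 in P904 and 307.2 in P2396. Its NP values were 62.7 in NP238, 68.0 in NP638, 72.4 in NP2810, 95.7 in NP856 and 167.0 in NP2541. Cow P1753, in the lowest 3 cows for 20 of the 23 members, therefore had more LRRC6 RNA than 4 of the 5 NP cows.

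CCDC39 and CCDC40 form a molecular ruler along the doublet that sets the spacing of inner arms and spokes. CCDC40 was nearly missing in cow P617, at 5.65 normalized counts (5 reads), and ran from 99.7 in P1541 to 650.2 in P2396 over the other cows. Without P617 its range was thus 6.52-fold, against 115-fold with it. Its NP cows had 190.7 in NP638, 210.0 in NP2810, 246.8 in NP238, 291.4 in NP856 and 452.5 in NP2541. CCDC39 ran from 37.3 in P617 to 548.7 in P2396.

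Radial spoke genes fell into those that followed the dyneins and one that followed them less closely. RSPH1 had 10.2 normalized counts in P617, a P median of 143.9 and 546.1 in P2396, and in NP cows 143.1 in NP638, 144.6 in NP238, 180.4 in NP2810, 269.9 in NP856 and 379.5 in NP2541. RSPH4A ran from 10.2 to 502.3 in the same 2 P cows, and RSPH10B from 63.3 to 624.0. RSPH9, also a spoke head protein, behaved otherwise. It had 85.9 in P617, near the 89.3 of P2396, and its lowest values were 26.1 in P1541, 36.2 in P1753 and 39.4 in NP238.

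SPAG6 and SPAG17 belong to the central pair apparatus, the hub that the spokes touch. SPAG6 had 19.2 normalized counts in P617, a P median of 282.6 and 1208 in P2396, and in NP cows 235.4 in NP638, 301.4 in NP238, 347.6 in NP2810, 423.7 in NP856 and 803.0 in NP2541. SPAG17 had 5.65 in P617, which is 5 reads, and 519.0 in P2396. Both repeated the order seen in the dyneins, with P617 lowest and with P2396 and NP2541 highest.

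Tektins form filaments along the doublets, and SPAG8 lies inside the doublet microtubules. TEKT1 had 27.1 normalized counts in P617, a P median of 186.5 and 728.1 in P2396, and in NP cows 107.2 in NP238, 126.8 in NP638, 180.4 in NP2810, 257.0 in NP856 and 418.0 in NP2541. TEKT4 had no read in P617, which allows up to 3 reads, 3 reads in P1541 and 63.0 normalized counts in P2396. TEKT2 and TEKT3 had maximum values of 376.3 and 111.1 in P2396. SPAG8 had a narrow range of 26.2 in P1753 to 68.8 in NP856, which is 2.63-fold, and its 40.7 in P617 lay inside the range of the other cows.

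**Figure D1:**
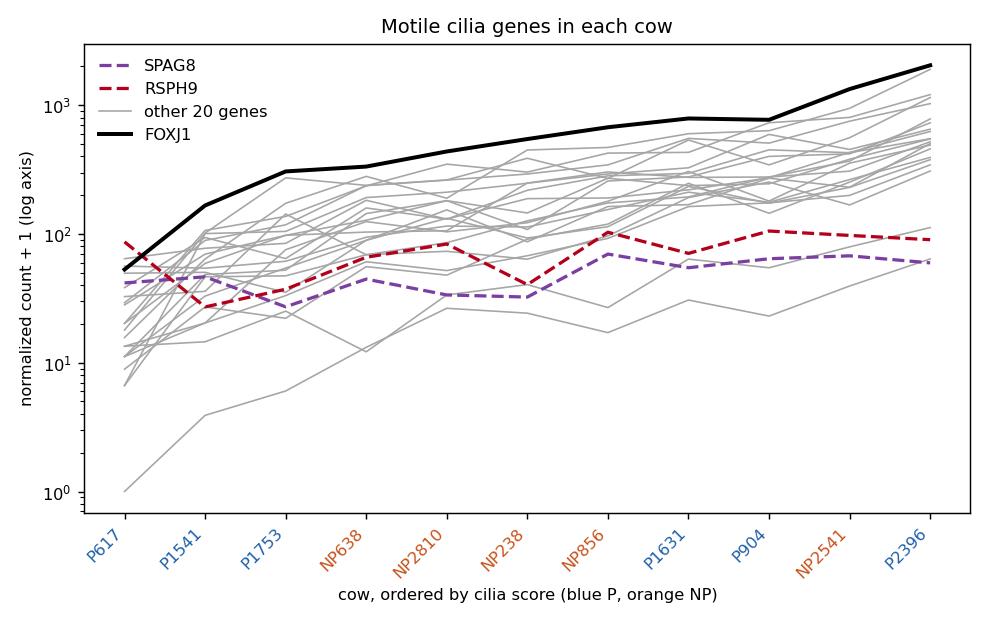
Normalized count + 1 of the 23 motile cilia genes (vertical, log axis) in each of the 11 cows (horizontal), ordered by the mean of log2(normalized count + 1) over the genes, with P cows in blue and NP cows in orange. Each line is 1 gene. FOXJ1 climbs from 52.0 in cow P617 to 2041 in cow P2396 and most genes climb with it. SPAG8 and RSPH9 (dashed) follow it less closely, and RSPH9 has 85.9 in P617 but 26.1 in P1541.

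The members can be summed up as a cilia score, the mean of log2(normalized count + 1) over the 23 genes. From the lowest cow to the highest it was 4.28 in P617, 5.53 in P1541, 6.02 in P1753, 6.64 in NP638, 6.84 in NP2810, 6.99 in NP238, 7.38 in NP856, 7.77 in P1631, 7.86 in P904, 8.20 in NP2541 and 8.83 in P2396. The lowest 3 cows and the highest cow were P, and the NP cows took ranks 4 to 7 and 10 of 11. Cow P2396 had the highest value for 21 of the 23 members, and the exceptions were RSPH9, highest in P904, and SPAG8, highest in NP856. Cow P617 had the lowest value for 18 members. Cows P617, P1541 and P1753 were among the lowest 3 for 21, 22 and 20 members, and NP2541 was among the highest 2 for 17.

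This spread was wide beside that of other genes. The SD over the 11 cows on the log2(normalized count + 1) scale had a median of 1.46 over the members, from 0.46 for SPAG8 to 1.92 for DNAH5, and a median of 0.42 over all 15081 genes tested. All 23 members lay above that median, and 6.50% of all genes had a larger SD than the members' median. Without cow P617 the medians were 1.08 for members and 0.36 for all genes.

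The cilia genes rose and fell together from cow to cow. Pearson's r on the log2 scale, computed over the 11 cows for each of the 253 pairs of members, had a median of 0.92, and 141 pairs (55.7%) had an r of at least 0.9. Over all pairs of tested genes the median was near 0 (-0.0025), and 0.493% of pairs had an r of at least 0.9. The highest pair was SPAG6 with SPAG17, both of the central pair apparatus, at 0.99. These correlations describe the same 11 libraries and carry no test, since pairs of genes are not independent.

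The co-variation was nearly as high without the cows with least cilia RNA. Without P617 the median r of members was 0.90, and without both P617 and P1541 it was 0.88. After the group means were removed from each gene it was 0.92. RSPH9 and SPAG8 were the members that followed least, with median correlations to the other members of 0.44 and 0.54, and the lowest of all pairs was RSPH9 with DNAH11 at 0.17. Among the other 21 genes, whose 210 pairs had a median of 0.93, no pair was below 0.72. SPAG8 and RSPH9, as well as LRRC6, DNAH2 and DNAH3, were singled out after their values were seen.

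**Figure D2:**
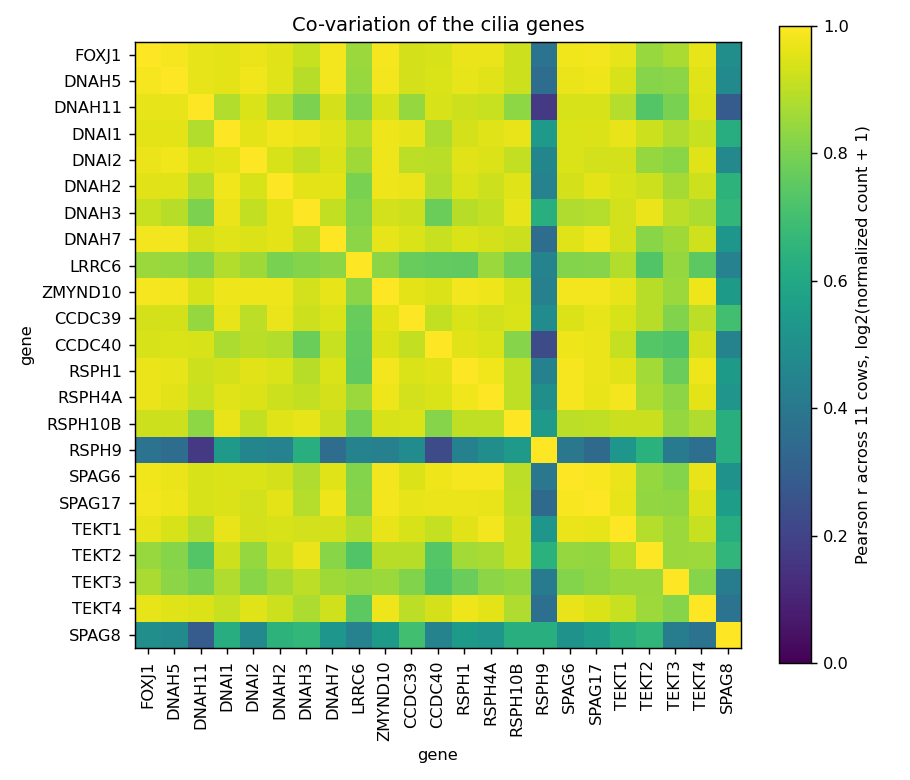
Pearson's r over 11 cows between log2(normalized count + 1) of each pair of the 23 motile cilia genes, coloured from 0 (dark) to 1 (yellow), with genes in the same order on both axes and grouped by their part in the cilium. Rows RSPH9 and SPAG8 stand out dark, down to an r of 0.17, while the 253 pairs have a median of 0.92.

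Because FOXJ1 is the known regulator of the programme, its RNA was compared with that of each other member. Of 22 genes, 20 were correlated with FOXJ1 over the 11 cows (two-sided permutation test of Pearson's r with 100000 resamples, Benjamini-Hochberg over 22 genes, threshold 0.1), and the median r was 0.96. This test was not run over all tested genes, so the share of all genes that would pass is not known. An r of at least 0.9 with FOXJ1 was found for 17 of the 22 genes. The share of all genes with such an r to FOXJ1 was not computed. For the cilia score it was 1.91% of the genes that are not members, and over all pairs of tested genes 0.493%. ZMYND10 had an r of 0.99 and a Spearman's rho of 1.00, each with a permutation p of 1e-05, the smallest that the resamples can give (adjusted p = 1.7e-05 and 2.4e-05). DNAH5 had an r of 0.99 and a rho of 0.98, with the same permutation p-values. The weakest correlation past the threshold was that of TEKT2 (r = 0.85, permutation p = 0.00066, adjusted p = 0.000726; rho = 0.94, permutation p = 0.0001, adjusted p = 0.000137).

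RSPH9 and SPAG8 did not pass with Pearson's r. RSPH9 had an r of 0.38 (permutation p = 0.249, adjusted p = 0.249) and a rho of 0.58 (permutation p = 0.0662, adjusted p = 0.0662). SPAG8 had an r of 0.50 (permutation p = 0.119, adjusted p = 0.125) and a rho of 0.64 (permutation p = 0.0404, adjusted p = 0.0423). All 22 genes passed with Spearman's rho. With the cows farthest from the FOXJ1 median, P2396 and P617, left out, r had a median of 0.91, RSPH9 rose to 0.79 and the lowest value was 0.58 for SPAG8. Without P617 alone, RSPH9 had an r of 0.75 and 22 genes passed.

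Members also differed in how steeply they changed with FOXJ1. For each doubling of FOXJ1, the fitted line over the cows gave an increase of 1.31 on the log2 scale for DNAH5, 1.19 for CCDC40 and 1.18 for SPAG17. ZMYND10 (1.02), DNAH7 (0.99) and DNAI1 (0.96) changed nearly in proportion. The slopes of RSPH10B (0.65), LRRC6 (0.64), TEKT2 (0.62) and DNAH3 (0.59) were smaller, and those of RSPH9 and SPAG8 were 0.18 and 0.16. The differences between slopes were not tested. All slopes include cow P617, where DNAH5, CCDC40 and SPAG17 had 13, 5 and 5 reads, and they were not fitted without it. From P1541 to P2396, FOXJ1 rose 12.3-fold and DNAH5 30.2-fold. CCDC40 (6.52-fold) and SPAG17 (11.4-fold) rose less than FOXJ1 between those 2 cows. From P1753 to P2396, FOXJ1 rose 6.69-fold, CCDC40 6.27-fold and SPAG17 11.2-fold. How far the steep slopes of CCDC40 and SPAG17 rest on P617 was not tested.

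**Figure D3:**
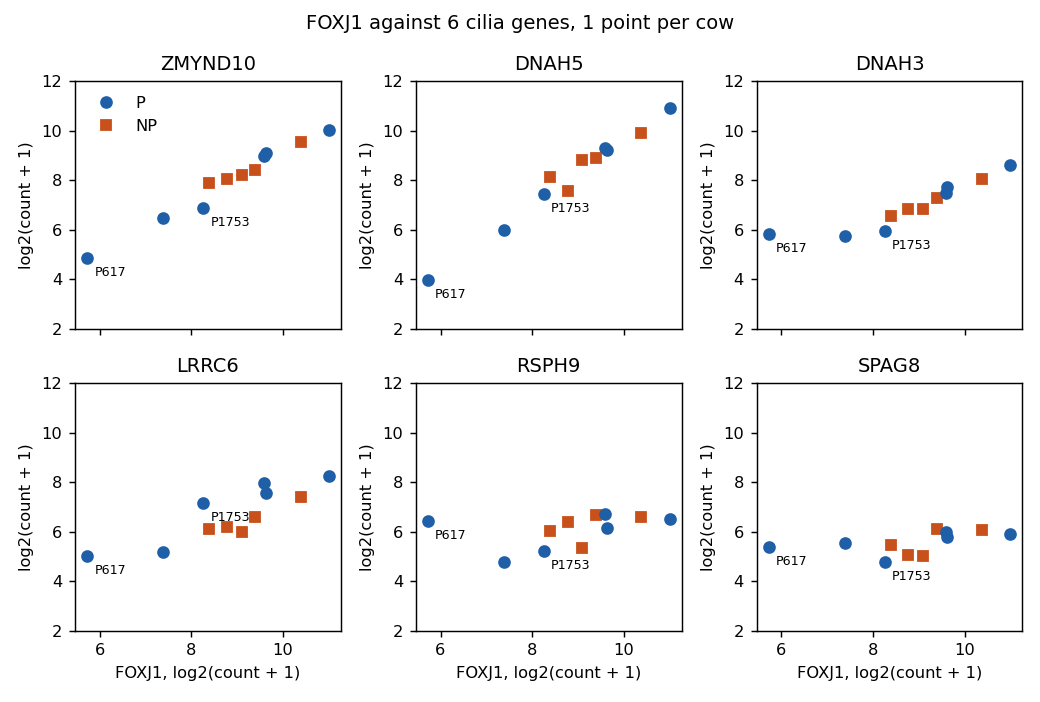
log2(normalized count + 1) of 6 cilia genes (vertical) against that of FOXJ1 (horizontal), 1 point per cow, with P cows as blue circles and NP cows as orange squares. ZMYND10 and DNAH5 lie on a line (r = 0.99 each), DNAH3 levels off at low FOXJ1, P1753 sits high in LRRC6, and RSPH9 and SPAG8 show the flattest relation (r = 0.38 and 0.50).

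The study asked whether the endometrium of cows that became pregnant already differed on day 6. With DESeq2 at an adjusted p threshold of 0.1 it reported genes that differed, and it measured several of them again by qRT-PCR. For the motile cilia genes no difference between P and NP cows was found, and the interval of each difference was wide. In limma on log2(normalized count + 1), 0 of 23 members had an adjusted p under 0.1, as did 0.0% of all genes, and 0 of 23 had an unadjusted p under 0.05, against 7.84% of all genes. The number of members whose P and NP values did not overlap was 0, against 1.09% of all genes. DESeq2 on the recovered reads called 1.33% of all genes and none of the members. In edgeR 0 of the 15081 genes were called, and so 0 members. There 0 members had an unadjusted p under 0.05, against 1151 of the 15081 genes.

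FOXJ1 had a mean of 687 ± 731 normalized counts in P cows (SD, n = 6) and 664 ± 395 in NP cows (SD, n = 5). The difference of mean log2 values, NP minus P, was 0.61 with an SE of 0.80 and a 95% interval of -1.13 to 2.35 (limma, adjusted p = 0.878). An exact two-sided permutation test over the 462 ways to split the cows gave p = 0.526, where the smallest p possible is 0.00216. The interval thus spans changes in FOXJ1 in either direction. RSPH1, the member with the smallest p, differed by 1.08 with an SE of 0.85 (interval -0.78 to 2.95, limma, adjusted p = 0.799, exact permutation p = 0.301), at means of 189 ± 202 in P cows and 224 ± 101 in NP cows. TEKT4 had the largest difference, 1.15 (interval -0.90 to 3.20, limma, adjusted p = 0.807, exact permutation p = 0.305), and its value in P617 was 0. DNAH5, DNAI2 and SPAG6 gave 0.85, 0.85 and 0.81, each with an adjusted p of 0.859 to 0.872 in limma.

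The direction of the difference depended on the scale and on the cows with least cilia RNA. On mean log2 values 20 of 23 members were higher in NP cows, as were 50.2% of all genes, with a median over members of 0.52 and a range from -0.41 for LRRC6 to 1.15 for TEKT4, but this median was -0.087 in edgeR and -0.098 in DESeq2, where 5 members were higher in NP cows. Likewise, the plain mean of normalized counts was higher in P cows for 18 members, with a median NP to P ratio of 0.934. The cilia score was 6.71 ± 1.72 in P cows and 7.21 ± 0.61 in NP cows (SD), a difference of 0.50. Without P617 the difference in score fell to 0.01 and the median over members to 0.02, with 14 members higher in NP cows. Without P617 and P1541 both turned, to -0.41 and -0.41.

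LRRC6 was lower in NP cows, and RSPH1 and RSPH9 were higher, under each of the 22 alternative settings, none of them past the adjusted threshold. The other 20 members changed sign in at least 1 setting. For LRRC6 the difference was -0.41 with all cows (SE 0.61, limma, adjusted p = 0.894, exact permutation p = 0.554), at means of 160 ± 113 in P cows and 93.2 ± 43.2 in NP cows. Without P617 and P1541 it was -1.29, with a limma p of 0.00243 and an adjusted p of 0.188. In that fit, chosen after seeing the data, 11.1% of all genes had an unadjusted p under 0.05, and LRRC6 was the single member of 23 to do so.

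**Figure D4:**
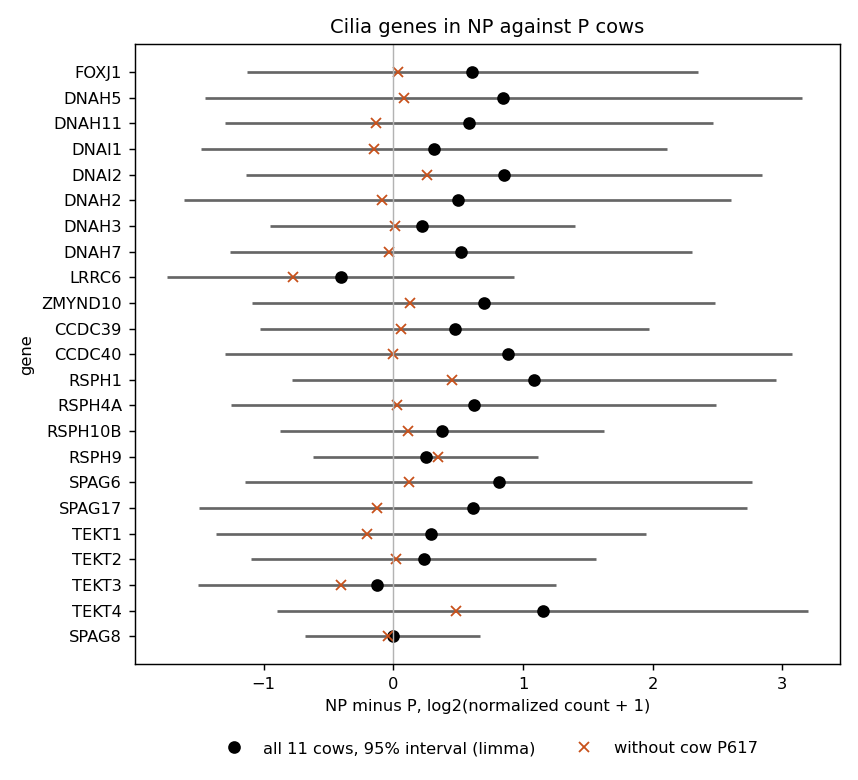
Difference of mean log2(normalized count + 1), NP minus P (horizontal), for each of the 23 motile cilia genes (vertical), with all 11 cows (black points, lines are 95% intervals from limma) and without cow P617 (orange crosses). Every interval includes 0, and without P617 the crosses gather around 0, with a median of 0.02.

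The P and NP groups differed more visibly in spread than in mean, although that was not tested. The SD of log2 values was larger in P than in NP cows for 22 of 23 members, with a median ratio of 2.50, and for 72.7% of all genes, with a median ratio of 1.42. The exception was SPAG8. Without P617 it was still larger in P cows for 22 members, with a median ratio of 2.16, against 60.5% of genes and 1.15. All NP cows lay inside the range of P cows for 21 of 23 members, but the share of all genes with this pattern was not computed. The P group had 1 cow more, and cow P617 set the lowest value for 18 members.

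The amount of cilia RNA was next set beside the epithelial RNA of each biopsy, since ciliated cells are epithelial. An epithelium score was made in the same way from 26 markers such as EPCAM, SPINT2, CLDN7 and KRT8, which code for adhesion, surface, junction and filament proteins of epithelia. It ran with the cilia score over the 11 cows (r = 0.78, rho = 0.54), but without P617 and P1541 r was 0.26. Smooth muscle (r = -0.60), stroma (-0.76) and gland (0.71) scores had correlations of -0.02, -0.40 and -0.16 without those 2 cows. In the lowest 2 cows cilia RNA was thus low together with epithelial RNA, and smooth muscle RNA was highest there. The part of tissue composition in the cilia differences among these cows was not tested. After the epithelium score was regressed out of each gene, the median r among members was 0.85 and 22 of 22 genes were correlated with FOXJ1. The share of all genes that would pass this FOXJ1 test was not computed. With the epithelium score as a covariate the median NP minus P difference was 0.26, and limma called 0 of 23 members and 0.875% of all genes.

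Cows P1753 and P2396 showed the same epithelial RNA with very different cilia RNA. Their epithelium scores were both 9.71, and their cilia scores 6.02 and 8.83. All 23 members were higher in P2396, by 2.16-fold for LRRC6 to 21.6-fold for DNAH2 with a median of 8.09-fold, and 18 members were at least 5-fold higher. Over all tested genes the median ratio was 0.993, and 2.84% were at least 5-fold higher. Of the 26 epithelial markers, 15 were higher in P2396 and the others were not. Both cows became pregnant, and this pair was chosen after the values were seen.

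**Figure D5:**
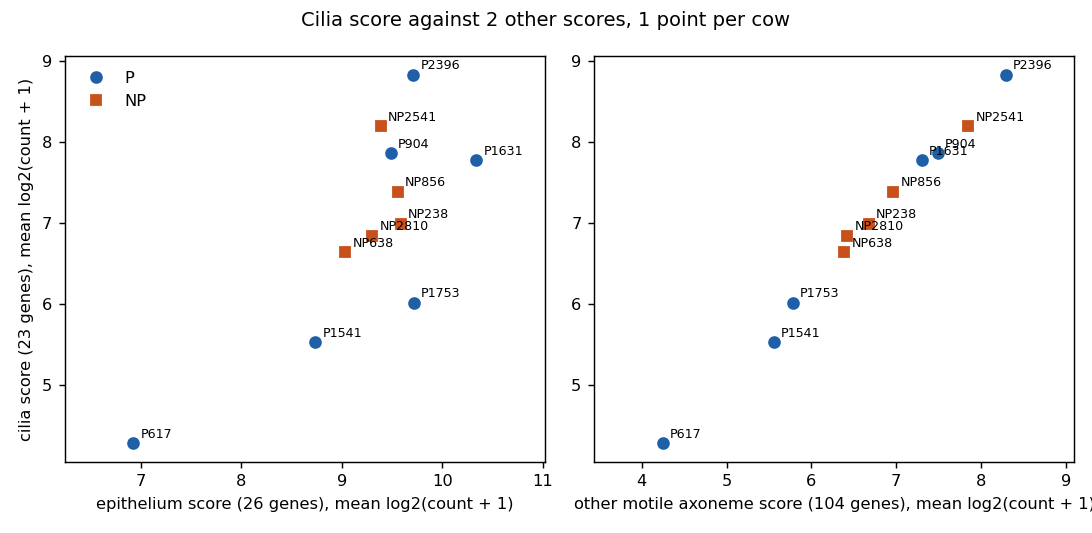
Cilia score (vertical, mean log2(normalized count + 1) of 23 genes) against the epithelium score of 26 genes (left) and the score of 104 other motile axoneme genes (right), 1 point per cow, with P cows as blue circles and NP cows as orange squares. P1753 and P2396 share an epithelium score of 9.71 but differ in cilia score (6.02 and 8.83), whereas the axoneme score orders all cows alike.

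Genes of the motile axoneme that the symbol rule did not take in followed the members closely. Of 104 such genes tested, 74 (71.2%) had an r of at least 0.9 with the cilia score, against 288 of the 15058 genes that are not members (1.91%), and their median r was 0.95. Their score correlated with the cilia score at 0.997, also without P617 and P1541. All 104 were higher in P2396 than in P1753, with a median of 6.14-fold. CAPS, a calcium-binding protein abundant in ciliated cells, ran from 397.6 normalized counts in P617 to 5458 in P2396 (r = 0.99). TUBB4B, a tubulin of cilia that other cells also use, had an r of 0.34, and CETN2, a centrin of all centrioles, had 0.70.

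Dynein assembly and docking factors outside the rule also followed. Of 16 tested, 10 (62.5%) had an r of at least 0.9, led by TTC25, an outer arm docking protein, at 0.97. RUVBL1 and PIH1D1, which serve other protein complexes in all cells, had correlations of -0.02 and 0.08. Intraflagellar transport genes, which build primary as well as motile cilia, varied far less. Their score ranged from 8.03 to 8.81, and 2 of 33 had an r of at least 0.9, although the score itself followed the cilia score (r = 0.88).

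Among 18 regulators of the cilia programme other than FOXJ1, 3 had an r of at least 0.9. TP73, a transcription factor needed for multiciliated cells, had an r of 0.95 and ran from 1.13 normalized counts in P617 (1 read) to 231.0 in P2396. MYB, which acts early in multiciliated cell formation, had 0.93 and ran from 23.7 to 690.5 in the same cows. GMNC, the regulator placed upstream of FOXJ1, had 0.83 with a mean of 18.8. RFX2 and RFX3, partners of FOXJ1 on ciliary promoters, had 0.60 and 0.80. E2F4, a factor that takes part in centriole amplification and is used in all cells, ran opposite at -0.88, from 576.7 in P2396 to 1201 in P617. MCIDAS, FOXN4 and CDC20B were below a mean of 5.

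None of the lists of cilia genes had a member called between P and NP cows in limma. Unadjusted p-values under 0.05 were found for 0 of 104 other axoneme genes, 0 of 16 assembly factors and 0 of 33 transport genes. Among regulators, NOTCH1 and JAG1, a receptor and its ligand in a pathway that restrains ciliated cell fate, were higher in NP cows by 0.65 and 0.45 at unadjusted p = 0.0218 and 0.0269 (adjusted p = 0.514 and 0.546). Both genes are also used in blood vessels, and all 14 endothelial markers were higher in NP cows, 12 of them at an unadjusted p under 0.05 in limma and none with an adjusted p under 0.1. These markers summed to 5550 to 17164 normalized counts in P cows and 10619 to 18880 in NP cows, and their part in the NOTCH1 and JAG1 differences was not tested. GMNN, an inhibitor of DNA replication licensing related to GMNC, was lower in NP cows by a log2 difference of -0.45 (unadjusted p = 0.0419, adjusted p = 0.608). Of all genes tested, 5.49% passed that threshold with a higher mean in NP and 2.35% with a higher mean in P.

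The genes outside the rule whose pattern over the 11 cows was most like the cilia score were ROPN1L, DCDC2B, MORN5, ENSBTAG00000034384, LRRC36, TTLL9, C13H20orf26, CAPS, CCDC65 and CCDC113, with r from 0.989 to 0.994. Of these, 7 were in the axoneme list, among them ROPN1L, a spoke protein, C13H20orf26, also known as CFAP61, and CCDC65, a part of the nexin-dynein regulatory complex that links doublets. In all, 288 genes reached an r of 0.9, of which 89 were in the lists and 199 in none, and 56 of these 199 had no gene name. None of the 288 had an unadjusted p under 0.05 between P and NP cows in limma, against 7.84% of all genes, and their smallest adjusted p was 0.738. They were selected for likeness to the cilia score, whose groups overlapped widely, so this result follows from the selection and adds no separate evidence. PROM1, a membrane protein of cellular protrusions, ran from 41.8 normalized counts in P617 to 1405 in P2396 and was in no list. A smaller set of 51 genes had an r of -0.9 or less.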

How the data were processed

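RNA-Seq libraries of endometrial biopsies from 11 cows (6 P, 5 NP) were analysed, with groups taken from the sample titles. As the study's methods state, the authors trimmed the read pairs (Seqyclean) and used Bowtie2 2.1.0, in local mode, to align these Bos indicus reads to a masked Bos taurus assembly, UMD3.1. HTSeq 0.5.4p2 counted the reads per gene. The authors deposited 1 normalized count per gene and cow (a signal scaled by DESeq2 1.12.1). The gene annotation and the use of strand are not given in the sources used here, so counts of overlapping genes and of near-identical copies are uncertain. In each cow 100% of the deposited values came within 0.05 of a whole number of reads once divided by the value of 1 read. In P1753 and NP238 that divisor was 1.01, close to 1, so there the match says less. The number of unused sample columns was 0.

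Values were taken as log2(value + 1). NP was compared with P by limma 3.58.1 (lmFit, eBayes with a trend) in R 4.3.3 over 15081 genes (mean of 5 or more), with Benjamini-Hochberg adjustment at 0.1. edgeR 4.0.16 (quasi-likelihood), DESeq2 1.42.0 (no prior, no independent filtering) and limma-voom on the reads, other pseudocounts and filters, TMM, an epithelium covariate and leaving out cows were alternatives. Correlations were computed in Python 3.11.15 with scipy 1.17.1, and p-values for FOXJ1 came from 100000 permutations. Genes with few reads carry more counting error, and a value of 0 allows up to 3 reads. Each cow gave 1 biopsy and 1 library. The p-values therefore rest on the spread between libraries, in which cow, biopsy and library preparation cannot be told apart.

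The rule for the members used symbols and no values, but the topic and the lists were chosen with earlier results of these data known. Listed genes were looked up by symbol, by older symbol, with the cattle chromosome prefix of open reading frames taken off, and in rows shared with an unnamed locus. Genes named by rule were FOXJ1, ZMYND10, the member of each family with the highest mean and that with the smallest p, those next to the mean of 5, and the 10 genes most like the score. Others were picked after their values were seen. Tested on simulated data of the 15081 genes with 200 changed in NP against P, limma recovered 80% of 4-fold and 89% of 8-fold changes, with 10.1% unchanged genes among 188 calls. The changed genes were drawn at random and each gene was simulated independently, without a cow like P617. The members varied more than most genes (median SD 1.46 against 0.42 on the log2 scale), so these rates cannot be taken as rates for the members. Of these tools, DESeq2 had the most unchanged genes among its calls, 32.0%. A planned search of promoters for motifs was not run, and no coordinates are given, because a genome of the files' build was not used here.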

Additional observations from a re-analysis of the deposited data

Results flagged for a closer look

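Of 74 sets of values examined for a cow far from the others of its group, 1 (1.35%) met the limit, where chance alone marks about 1 in 20. It was the endometrial gland score (mean log2 of 14 gland genes) in P cows. Cow P617 had 6.30, against 8.72 in the nearest P cow, and this gap was 0.685 of the range of the group. The cilia score of P617 was also the lowest of the P cows (4.28) but did not meet the limit.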

How the results depend on the processing

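No paired analysis was possible because each cow has its own number and the groups share none. The count of cilia genes called between P and NP cows was 0 under all 22 alternatives. With 6 and 5 cows the 95% interval of a member's difference had a median half-width of 1.79 on the log2 scale, and the interval was narrower for SPAG8 (-0.68 to 0.67). The median difference of the members, 0.52 with all cows in limma, ran from 0.02 to 1.05 when single cows were left out. It reversed to -0.087 in edgeR, -0.098 in DESeq2, -0.41 without P617 and P1541 and -0.23 without P617, P1541 and NP638. The score difference, 0.50, ran from 0.01 to 0.92 when single cows were left out, lowest without P617 and highest without P2396, and reversed to -0.41 and -0.27 in those last 2 settings, which were chosen after seeing the data. In both settings 1 member, LRRC6, had an unadjusted p under 0.05, as did 11.1% and 10.2% of all genes. With all cows 0 members did. Over all genes, 0 passed in limma, with 1182 at an unadjusted p under 0.05, and counts ran from 0 to 171 when single cows were left out, with 171 without P904. They were 201 in DESeq2, 132 with the epithelium covariate and 17 without P617 and P1541. The causes were not tested. The median correlation among members ran from 0.90 to 0.93, and the number of genes correlated with FOXJ1 from 20 to 22, when single cows were left out.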
